A study of Mus musculus with 4 samples.

Results

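The genes described here are 39 genes of the oxidative stress and glutathione system, taken as a fixed list of symbols and measured in C57BL/6J mice in the parietal peritoneum, which lines the wall of the abdomen. Of several probe sets for a gene, the one with the highest log2 signal on average was used, and 35 of the 39 genes had a probe set assigned to a single gene. Prdx1 and Ftl1 were covered only by probe sets assigned to more than 1 gene, Prdx5 and Prdx6 had no probe set in the annotation table used here, and none of these 4 is given a value. Of the 35, 34 were called Present, that is detected above background, on at least 1 array, and 33 on all 4 arrays. The cystine transporter Slc7a11 was Absent on every array, with signals of 3.84 to 6.49, and is left out of the counts. The same annotation named 18193 genes, of which 12754 were Present on at least 1 array.

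The study compared 4 groups of mice, with 1 Affymetrix array for each. Wild-type mice, and SAP-BNP-Tg mice, which carry a brain natriuretic peptide transgene under the serum amyloid P promoter, received either chlorhexidine gluconate or ethanol in PBS, called vehicle here. Chlorhexidine, an antiseptic that irritates the peritoneum, was injected intraperitoneally at 0.1% in 15% ethanol and 85% PBS, 0.01 mL per gram of body weight, 3 times per week for 21 days. The volume and schedule for the vehicle groups, the age of the mice and how many mice lie behind an array are not stated in the labels. The serum amyloid P promoter is known for its activity in the liver. The transgene's transcript does not check the genotype labels, since Nppb, which encodes the hormone, was Absent on all 4 arrays with signals of 4.04 to 20.1.

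Each array called 50.5% to 55.1% of its probe sets Present. One array, that of wild-type vehicle, was unlike the rest in some of its controls. Its mean 18S rRNA signal was 1052 against 81.5 to 108 on the other arrays. Its beta-actin signal was higher at the 3-prime probe set than at the middle one by a ratio of 5.81 against 2.23 to 2.84. The ratio of the 3-prime to the 5-prime beta-actin probe set differed less, at 1.22 against 1.07 to 1.15. Every wild-type difference below rests on that array, so wild-type values with transgenic vehicle as the base are given below where they turn a sign, change a call or move a called value by over 1.5 times. All 9 mesothelial markers with a probe set were Present on all 4 arrays, and so were all 10 markers of skeletal muscle, which lies beneath the peritoneum. Markers of B and plasma cells, by contrast, were lower with chlorhexidine in both genotypes, with medians of -4.28 and -2.47 over 5 genes. In bulk tissue, fewer cells of a type and less RNA per cell cannot be told apart.

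Cells detoxify superoxide with superoxide dismutases, and hydrogen peroxide with catalase, peroxiredoxins and glutathione peroxidases. The peroxidases draw on the reduced thiols glutathione and thioredoxin, and glutathione transferases couple glutathione to reactive lipids and foreign compounds. The transcription factor Nrf2, encoded by Nfe2l2, is held down by Keap1 and, when oxidants or electrophiles modify Keap1, induces many of these genes through antioxidant response elements. Metallothioneins, which bind zinc and copper, are induced by metals, glucocorticoids and inflammatory signals, among others.

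The system did not move as a unit with chlorhexidine. Metallothioneins, haem oxygenase and secreted or endoplasmic reticulum peroxidases had higher signals, whereas glutathione transferases, the mitochondrial enzymes Sod2 and Prdx3 and catalase had lower signals, and Nrf2 itself differed little. Calls of higher or lower needed a log2 difference of 1 or more (2-fold) and, on the brighter of the compared arrays, a Present call with a signal no lower than the 25th percentile of all Present signals. In wild type, 4 of 34 genes were called higher (Hmox1, Gsr, Gpx7 and Mt2), which is 11.8% beside 8.22% of all 12754 genes, and 3 were called lower (Gsta3, Gsta4 and Sod2), 8.82% beside 4.93%. In transgenic mice 1 gene, Mt2, was called higher, 2.94% beside 3.81%, and 0 were called lower beside 1.40% of all genes. The median log2 difference of the 34 genes was -0.06 in wild-type mice and -0.02 in transgenic mice, beside 0.00 and 0.00 over all genes. These calls carry no p-value, and with so few genes the shares cannot be set apart from the background.

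**Figure D1:**
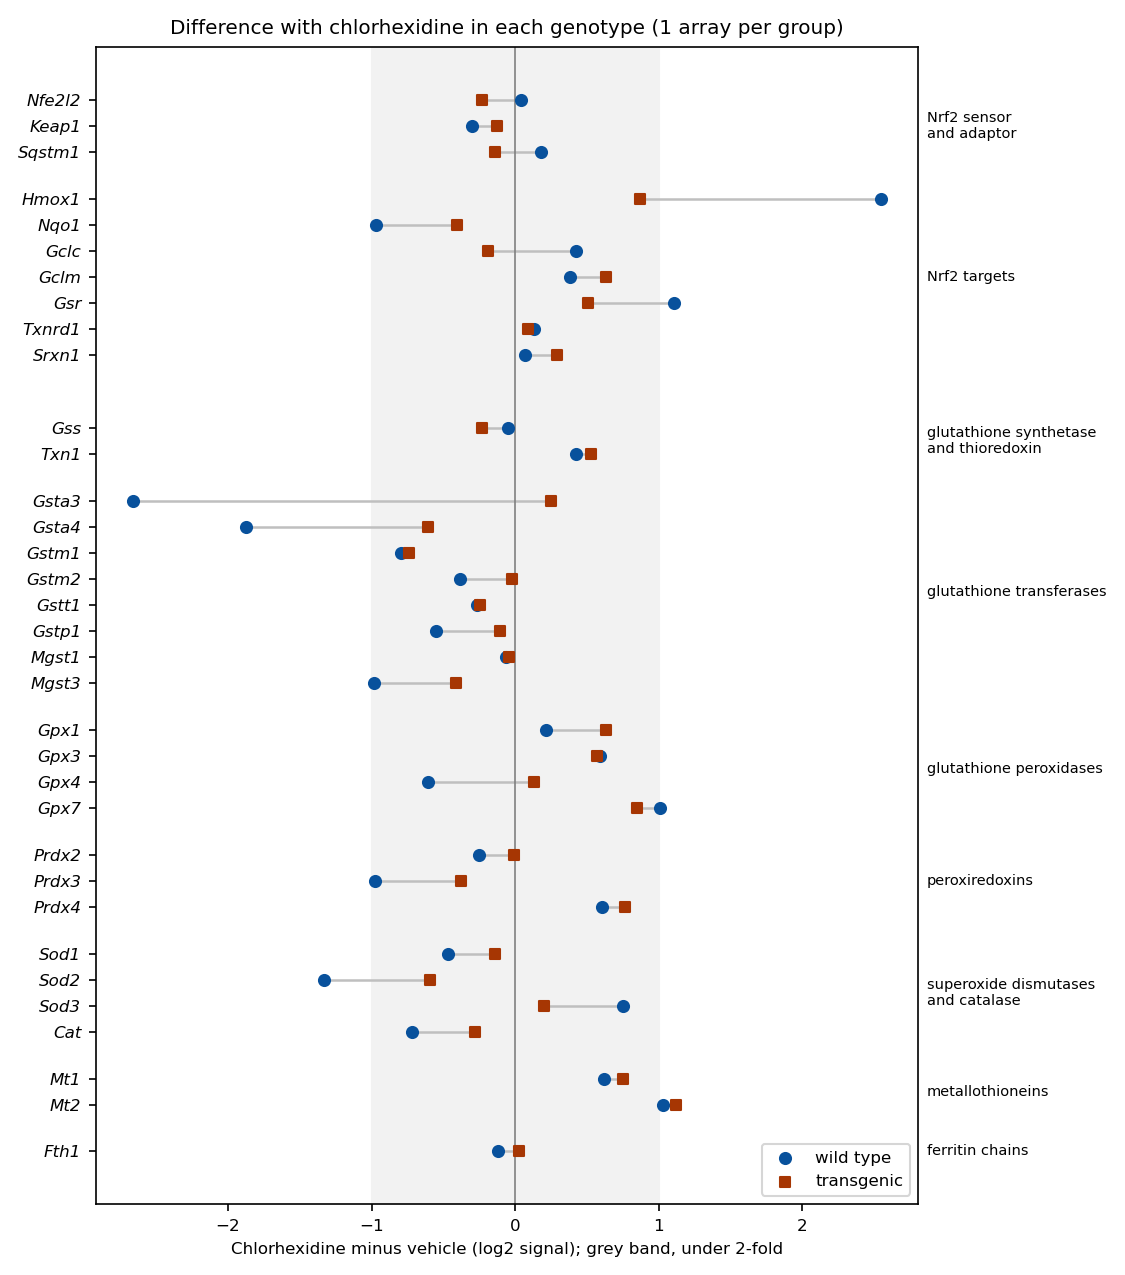
Log2 signal with chlorhexidine minus vehicle (horizontal axis) for the 34 genes Present on at least 1 array, with wild type as blue circles and transgenic mice as brown squares, from 1 array per group. Most genes lie inside the grey band of less than 2-fold. Hmox1 (2.55) and Gsta3 (-2.66, a value that includes an Absent signal) mark the ends of the wild-type range.

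The genotypes differed in the same direction for most genes. Of the 34 genes, 13 were above 0 in both genotypes, 15 below 0 in both and 6 opposite, so that 82.4% shared a sign, beside 72.8% of all genes. The differences of the genotypes, which share no array, had a Pearson correlation of 0.70 across the 34 genes and 0.55 across all 12754, as a description, since genes are not independent replicates. In 25 of the 34 genes the difference was larger in size in wild type, as it was in 8606 of all 12754 genes. Small differences took their sign from the array scaling: it turned for Nfe2l2, Txnrd1, Srxn1, Gss, Mgst1 and Fth1 in wild type, and for Txnrd1, Mgst1, Gpx4, Prdx2, Sod3 and Fth1 in transgenic mice. Where a gene had several probe sets Present on all arrays, they shared a sign in 11 of 15 genes in each genotype.

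With treatment and genotype as additive terms, limma had 1 residual degree of freedom and called 0 of the 34 genes for chlorhexidine. It called 12 of 12754 genes, or 0.0941%, with Benjamini-Hochberg adjustment across them. At an unadjusted p under 0.05 the limma fit held 13 of the 34 genes (38.2%), beside 23.0% of all genes. Its coefficients were above 0 for Hmox1, Gsr, Gpx3, Gpx7, Prdx4, Mt1 and Mt2, and below 0 for Nqo1, Gsta4, Gstm1, Mgst3, Prdx3 and Sod2. The smallest adjusted p of limma was that of Mt2, at 0.0892 for a coefficient of 1.08 ± 0.21 (SE). With a variance prior that follows intensity, 12 of the 34 genes were called, beside 19.5% of all genes.

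Signals below are given in a fixed order, first the wild-type arrays (vehicle, then chlorhexidine) and then the transgenic arrays (vehicle, then chlorhexidine), after the arrays were scaled to a common trimmed mean. They compare arrays for 1 probe set, and signals of different genes are not on a common scale.

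**Figure D2:**
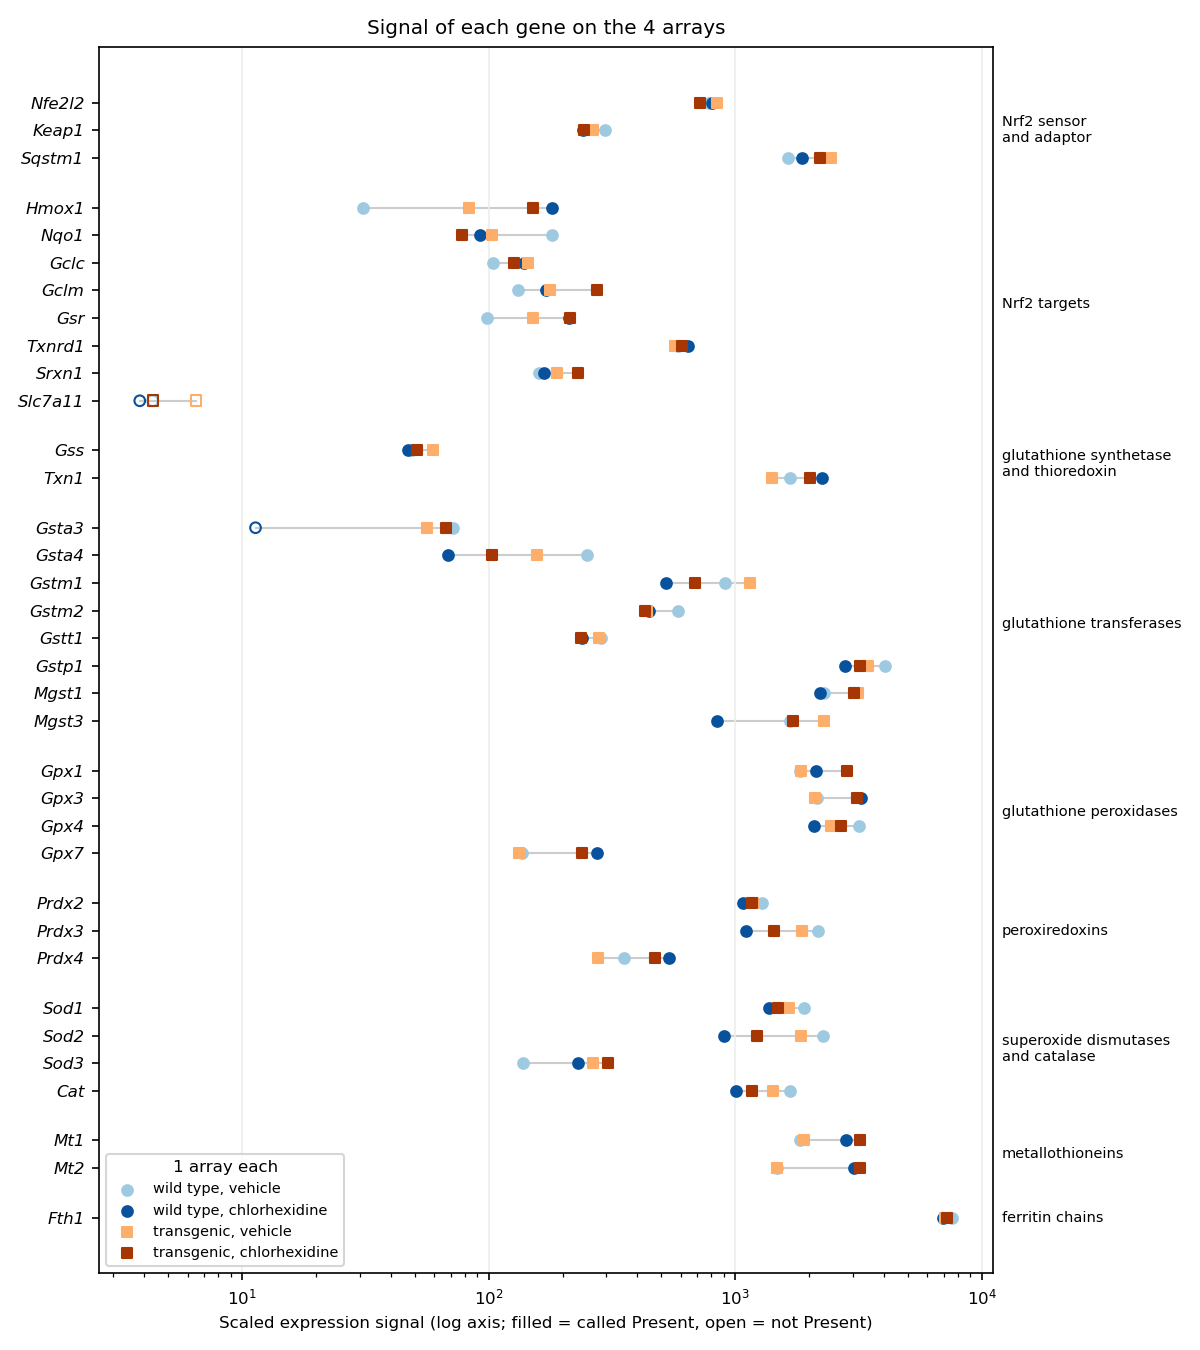
Scaled signal (logarithmic horizontal axis) of the 35 genes with a probe set on each of the 4 arrays, grouped by role. Filled points were called Present and open points were not. Points of Mt1, Mt2, Gpx3 and Gpx7 fall into a lower vehicle pair and a higher chlorhexidine pair, whereas those of Nfe2l2, Txnrd1 and Fth1 lie close together.

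The metallothioneins had higher signals with chlorhexidine in both genotypes, by similar factors. Mt2, a zinc-binding metallothionein, had signals of 1479, 3019, 1472 and 3207. Its vehicle arrays differed by -0.01 and its chlorhexidine arrays by 0.09 on the log2 scale, transgenic minus wild type. Chlorhexidine was 2.04-fold higher in wild-type mice and 2.18-fold higher in transgenic mice. Mt1, its neighbour on chromosome 8, had signals of 1839, 2824, 1907 and 3204, which is 1.54-fold and 1.68-fold higher. A second, dimmer Mt1 probe set gave log2 differences of 0.58 and 0.68. In both genes both chlorhexidine arrays lay above both vehicle arrays. The call for Mt2 sits at the threshold: the wild-type log2 difference of 1.03 ran from 0.86 to 1.36 over the array scalings tried. The transgenic one of 1.12 ran from 0.92 to 1.22.

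The promoters of this pair are shown because the genes moved together and metal response elements are their known control sequences. RefSeq promoter windows (build GRCm38.p6) were matched for 33 of the 39 genes, in 41 windows, and the 250 bases before the annotated start were searched. The metal response element was searched on both strands as TGCACNC or TGCGCNC, and its matches are in capitals. Mt2 lies on the plus strand and the window is chr8:94172368-94172617. Mt1 lies on the plus strand and the window is chr8:94178839-94179088.
Mt2: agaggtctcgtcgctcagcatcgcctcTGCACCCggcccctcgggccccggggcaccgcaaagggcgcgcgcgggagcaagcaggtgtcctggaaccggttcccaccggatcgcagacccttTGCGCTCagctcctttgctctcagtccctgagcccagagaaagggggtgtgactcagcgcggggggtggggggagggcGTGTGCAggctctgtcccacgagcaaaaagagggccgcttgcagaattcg
Mt1: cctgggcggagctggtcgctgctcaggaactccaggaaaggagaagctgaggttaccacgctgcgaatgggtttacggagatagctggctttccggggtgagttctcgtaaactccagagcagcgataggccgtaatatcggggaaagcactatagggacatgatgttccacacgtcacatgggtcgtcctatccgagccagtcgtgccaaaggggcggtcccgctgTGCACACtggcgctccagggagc

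Mt2 held 3 matches, beginning 223, 128 and 50 bases before the start, and Mt1 held 1, beginning 23 bases before it. The Mt1 window precedes a start inside the gene, whose annotated span begins at chr8:94178883, so most of it lies within the gene. The counts of Mt1 and Mt2 thus do not compare like windows, and sequence outside the windows was not searched. Of all 32851 promoter windows, 21.4% held at least 1 match and 1.26% held 3 or more. Of the 41 windows of the listed genes, 9 held a match, or 22.0%. A match describes the letters only and says nothing about binding of a factor.

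Other genes that respond to metals or glucocorticoids did not follow the metallothioneins as a list. Of 11 listed, 10 were Present, with medians of -0.29 in wild-type mice and -0.14 in transgenic mice. Slc39a14, a zinc and iron importer, was called higher in both genotypes, at 3.34-fold and 2.36-fold.

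The Nrf2 sensor genes differed little between the arrays. Nfe2l2 had signals of 784, 808, 845 and 719, with chlorhexidine 1.03-fold higher in wild-type mice and 1.18-fold lower in transgenic mice. Keap1, the adaptor that marks Nrf2 for destruction, had signals of 297, 241, 265 and 242, 1.23-fold and 1.09-fold lower. Sqstm1, the autophagy receptor p62 that binds Keap1 and is itself an Nrf2 target, had signals of 1643, 1862, 2440 and 2211. Its arrays separated by genotype rather than by treatment, with both transgenic arrays above both wild-type arrays, and a dim second Sqstm1 probe set did not show this. With transgenic vehicle as the base the wild-type log2 difference of Sqstm1 turned from 0.18 to -0.39 and that of Nfe2l2 from 0.04 to -0.06. Of 10 listed partners and repressors of Nrf2, 9 were Present, with medians of 0.07 and -0.01. Of the 9, 0 were called in either genotype, beside 1839 of all 12754 genes called in at least 1.

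Among 8 Nrf2 target genes, 7 were Present, with medians of 0.38 and 0.29. Of the 7, 2 were called higher in wild-type mice and 0 in transgenic mice, beside 8.22% and 3.81% of all genes, too few to set apart from the background. The wild-type median was -0.04 with transgenic vehicle as the base, so its direction depended on the vehicle array. Hmox1, the inducible haem oxygenase that degrades haem to biliverdin, carbon monoxide and iron, had signals of 31.0, 181, 83.3 and 152. Both chlorhexidine arrays lay above both vehicle arrays, by 5.84-fold in wild-type mice and 1.82-fold in transgenic mice. The vehicle arrays themselves differed 2.68-fold, with transgenic higher. Set against transgenic vehicle instead, the wild-type chlorhexidine signal was 2.18-fold higher, and the chlorhexidine arrays differed by 1.19-fold.

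Gsr, glutathione reductase, which regenerates reduced glutathione, had signals of 98.8, 212, 151 and 214, or 2.15-fold and 1.42-fold higher with chlorhexidine. The second Gsr probe set, Present on all 4 arrays, had signals of 164, 161, 111 and 180, which is 1.02-fold lower in wild-type mice and 1.61-fold higher in transgenic mice, so the wild-type call for Gsr rests on the choice of probe set. It also rests on the vehicle array, since with transgenic vehicle as the base the wild-type difference was 1.40-fold and not called. Gclm, the modifier subunit of the enzyme that limits glutathione synthesis, had signals of 131, 171, 177 and 274, and was 1.31-fold and 1.55-fold higher. Gclc, the catalytic subunit of the same enzyme, had signals of 104, 140, 145 and 127, which is 1.34-fold higher in wild-type mice and 1.14-fold lower in transgenic mice. With transgenic vehicle as the base, the wild-type log2 differences turned to -0.04 for Gclm and -0.05 for Gclc.

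Not all Nrf2 targets had higher signals with chlorhexidine. Nqo1, the quinone reductase often used as a readout of Nrf2, had signals of 180, 92.1, 103 and 78.0, which is 1.96-fold lower in wild-type mice and 1.32-fold lower in transgenic mice. The wild-type vehicle array was the high one, and with transgenic vehicle as the base the wild-type log2 difference was -0.17. Txnrd1, the cytosolic thioredoxin reductase, had signals of 586, 642, 572 and 607, within 1.09-fold of its vehicle in either genotype. Srxn1, sulfiredoxin, which repairs overoxidised peroxiredoxins, was 1.05-fold and 1.22-fold higher, and of its 3 probe sets Present on all arrays 1 had a log2 difference below 0 in transgenic mice. The wild-type value of Srxn1 turned to -0.17 with transgenic vehicle as the base.

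The thioredoxin gene Txn1 had signals of 1674, 2250, 1404 and 2019, or 1.34-fold and 1.44-fold higher, with both chlorhexidine arrays above both vehicle arrays. Gss, glutathione synthetase, was 1.04-fold and 1.17-fold lower, and its 2 probe sets disagreed in sign in both genotypes. Fth1, the ferritin heavy chain that stores iron, had signals of 7582, 6971, 7112 and 7240, within 1.09-fold of its vehicle.

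The antioxidant response element was searched as TGACNNNGC on both strands, a core that can also hold an AP-1 site. Of the 41 windows of the listed genes, 8 held a match, or 19.5%, beside 10.2% of all windows. The surroundings of 5 matches are printed, in genes that differ in their response, with the match in capitals. The windows are chr3:122245412-122245442 for Gclm, chr10:82859103-82859133 for Txnrd1, chr1:21240453-21240483 for Gsta3, chr6:138140460-138140490 for Mgst1 and chr8:94172528-94172558 for Mt2, all on the plus strand.
Gclm: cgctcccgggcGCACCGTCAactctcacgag
Txnrd1: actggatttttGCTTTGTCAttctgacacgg
Gsta3: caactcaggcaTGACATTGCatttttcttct
Mgst1: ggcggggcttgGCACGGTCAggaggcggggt
Mt2: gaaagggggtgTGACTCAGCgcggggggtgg

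These 5 genes did not share a direction: Mt2 had higher signals with chlorhexidine in both genotypes, Gclm did so against each genotype's own vehicle, Txnrd1 and Mgst1 stayed within 1.09-fold of vehicle, and Gsta3 was lower in wild type. In Gclm a metal response element match overlaps the antioxidant one. Nqo1, Srxn1 and Slc7a11 held no match in the bases searched.

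Glutathione transferases had lower signals with chlorhexidine. All 8 were below 0 in wild-type mice and 7 of 8 in transgenic mice, with medians of -0.67 and -0.17, beside 0.00 over all genes. In wild-type mice 2 were called lower and in transgenic mice 0, beside 4.93% and 1.40% of all genes, too few to set apart from the background. The sign of Mgst1 turned under at least 1 array scaling in both genotypes, and those of the other 7 did not. With transgenic vehicle as the base the wild-type median was -0.82, Gstm2 turned from -0.39 to 0.03, and Gstm1 (-1.14) and Mgst3 (-1.44) were called lower too. Gsta4, which conjugates the lipid peroxidation product 4-hydroxynonenal, had signals of 251, 68.5, 157 and 103, so both chlorhexidine arrays lay below both vehicle arrays, by 3.66-fold in wild-type mice and 1.52-fold in transgenic mice. With transgenic vehicle as the base, Gsta4 was 2.29-fold lower in wild type. Gstm1, a mu class enzyme, had signals of 905, 522, 1147 and 686, or 1.74-fold and 1.67-fold lower. A second Gstm1 probe set gave 1.80-fold and 1.46-fold. Mu class genes are close copies, and a probe set may take up signal from a relative.

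Mgst3, a microsomal transferase and peroxidase, had signals of 1661, 841, 2282 and 1711, or 1.98-fold and 1.33-fold lower. Its 2 chlorhexidine arrays differed by 2.03-fold, with transgenic higher. Gstp1, the pi class enzyme, had signals of 4068, 2778, 3456 and 3218, or 1.46-fold and 1.07-fold lower. Gstm2 was 1.31-fold and 1.02-fold lower, and Mgst1 1.04-fold and 1.03-fold lower. Gstt1, of the theta class, had log2 differences of -0.26 and -0.25. Mgst1 signals of 2297, 2199, 3134 and 3040 separated by genotype.

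Gsta3, an alpha class transferase, parted the genotypes. Its signals were 71.5, 11.3, 56.4 and 67.2, with the wild-type chlorhexidine array called Absent. By this probe set, chlorhexidine was thus at least 6.32-fold lower in wild-type mice, counted from the Absent signal itself, and 1.19-fold higher in transgenic mice. The second Gsta3 probe set, Present on all 4 arrays, had signals of 32.5, 12.4, 31.8 and 23.5, or 2.62-fold and 1.35-fold lower. The probe sets thus placed the wild-type chlorhexidine array lowest alike, and differed in the direction for transgenic mice. The summed signal of 9 mesothelial markers was also lowest on that array, at 717, 423, 576 and 628, with medians of -0.71 and 0.31, and -0.16 in wild type with transgenic vehicle as the base. The markers did not move together, since 7 were below 0 and 2 above 0 in wild type, and Wt1 (31.5, 60.7, 21.8 and 52.3) and Krt8 were highest on that array. The part of the mesothelium in the Gsta3 value was not tested.

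Most other glutathione enzymes also lay below 0 in wild type. Of 24 listed, 21 were Present and 18 were below 0 in wild-type mice and 14 in transgenic mice, with medians of -0.66 and -0.12. Of the 21, 2 were called lower in wild type, beside 4.93% of all genes. Gstk1, the transferase of mitochondria and peroxisomes, was 2.69-fold and 1.54-fold lower, and Oplah, 5-oxoprolinase of the glutathione cycle, 2.28-fold and 1.76-fold lower. The exception called higher in both genotypes was Gpx8, a peroxidase of the endoplasmic reticulum, at 2.68-fold and 2.21-fold.

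Glutathione peroxidases had medians of 0.40 and 0.60. Gpx7, which like Gpx8 resides in the endoplasmic reticulum, had signals of 137, 274, 132 and 238, or 2.01-fold and 1.80-fold higher. The vehicle arrays were 1.03-fold apart, and the wild-type call sits at the threshold, with log2 differences of 0.83 to 1.26 over the scalings. Gpx3, the secreted plasma peroxidase, had signals of 2145, 3235, 2101 and 3121, or 1.51-fold and 1.49-fold higher. Gpx1, the cytosolic enzyme, had signals of 1828, 2121, 1840 and 2847, with the transgenic chlorhexidine array highest. Gpx4, which reduces lipid peroxides in membranes, had signals of 3171, 2085, 2455 and 2694, which is 1.52-fold lower in wild-type mice and 1.10-fold higher in transgenic mice, a direction that turned under at least 1 scaling (-0.07 to 0.24). A second Gpx4 probe set, Present on all 4 arrays, was 1.16-fold lower and 1.02-fold higher, so the size of the wild-type difference depends on the probe set.

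The array with the highest Gpx1 signal also had the highest signals of red cell genes. Of 8 erythroid markers 4 had a probe set and 3 were Present, with summed signals of 378, 327, 270 and 1864. Their medians were 0.14 in wild-type mice and 2.97 in transgenic mice. Prdx2, a peroxiredoxin abundant in red cells, had signals of 1288, 1080, 1177 and 1172, not highest on that array. A second, dimmer Prdx2 probe set, Present on all 4 arrays, was highest there (136, 136, 156 and 164). Cat, also abundant in red cells and described below, was not highest on that array. The part of red cells in the Gpx1 value was not tested.

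Values were available for 3 of 6 peroxiredoxins, 1 in each of 3 compartments, and these differed in direction. Prdx4, the enzyme of the endoplasmic reticulum, had signals of 354, 538, 279 and 474, or 1.52-fold and 1.70-fold higher, with both chlorhexidine arrays above both vehicle arrays. Prdx3, the mitochondrial enzyme, had signals of 2168, 1104, 1859 and 1432, or 1.96-fold and 1.30-fold lower, with both chlorhexidine arrays below both vehicle arrays. Fibroblast markers moved with the peroxidases of the endoplasmic reticulum: 7 of 7 were above 0 in both genotypes, with summed signals of 20133, 38523, 20224 and 33027, and their part in these values was not tested. Prdx2, in the cytosol, had log2 differences of -0.25 and -0.01.

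Among superoxide dismutases and catalase, 3 of 4 genes were below 0 in both genotypes, with medians of -0.59 and -0.21. Sod2, the manganese enzyme of mitochondria, had signals of 2266, 899, 1851 and 1227, or 2.52-fold and 1.51-fold lower. All 4 Sod2 probe sets, each Present on every array, were below 0 in both genotypes, from 1.34-fold to 2.68-fold in wild-type mice and from 1.16-fold to 1.53-fold in transgenic mice. With transgenic vehicle as the base, Sod2 in wild type was still past 2-fold, at -1.04. Cat, the catalase of peroxisomes, had signals of 1660, 1010, 1424 and 1172, or 1.64-fold and 1.21-fold lower, and its second probe set gave 1.69-fold and 1.06-fold. Sod1, the cytosolic enzyme, was 1.38-fold and 1.10-fold lower.

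Sod3, the extracellular dismutase, went the other way in wild type. Its signals were 137, 231, 265 and 305, with the wild-type vehicle array alone low. The vehicle arrays differed 1.93-fold, more than chlorhexidine from vehicle in either genotype (1.68-fold and 1.15-fold higher), and with transgenic vehicle as the base the wild-type log2 difference was -0.20.

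The thioredoxin system of mitochondria and related genes had lower medians too in wild type. Of 14 listed genes 13 were Present, with medians of -0.46 and -0.07. Of the 13, 0 were called in either genotype, beside 1839 of all 12754 genes called in at least 1. Most adipocyte markers moved with the genes that were lower: 5 of 7 had a probe set, with summed signals of 10800, 6041, 11130 and 8152 and medians of -1.38 and -0.70. Of the 5, 4 were below 0 in both genotypes, and Pparg was above 0 in both (0.06 and 0.14). Adiponectin (Adipoq) was 2.74-fold and 1.62-fold lower, and leptin (Lep) was Absent on both chlorhexidine arrays. The 10 skeletal muscle markers had medians of -0.27 and 0.06 and summed signals of 95822, 78748, 78598 and 81101. Their wild-type median turned to 0.02 with transgenic vehicle as the base. The part of fat and muscle in these values was not tested.

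**Figure D3:**
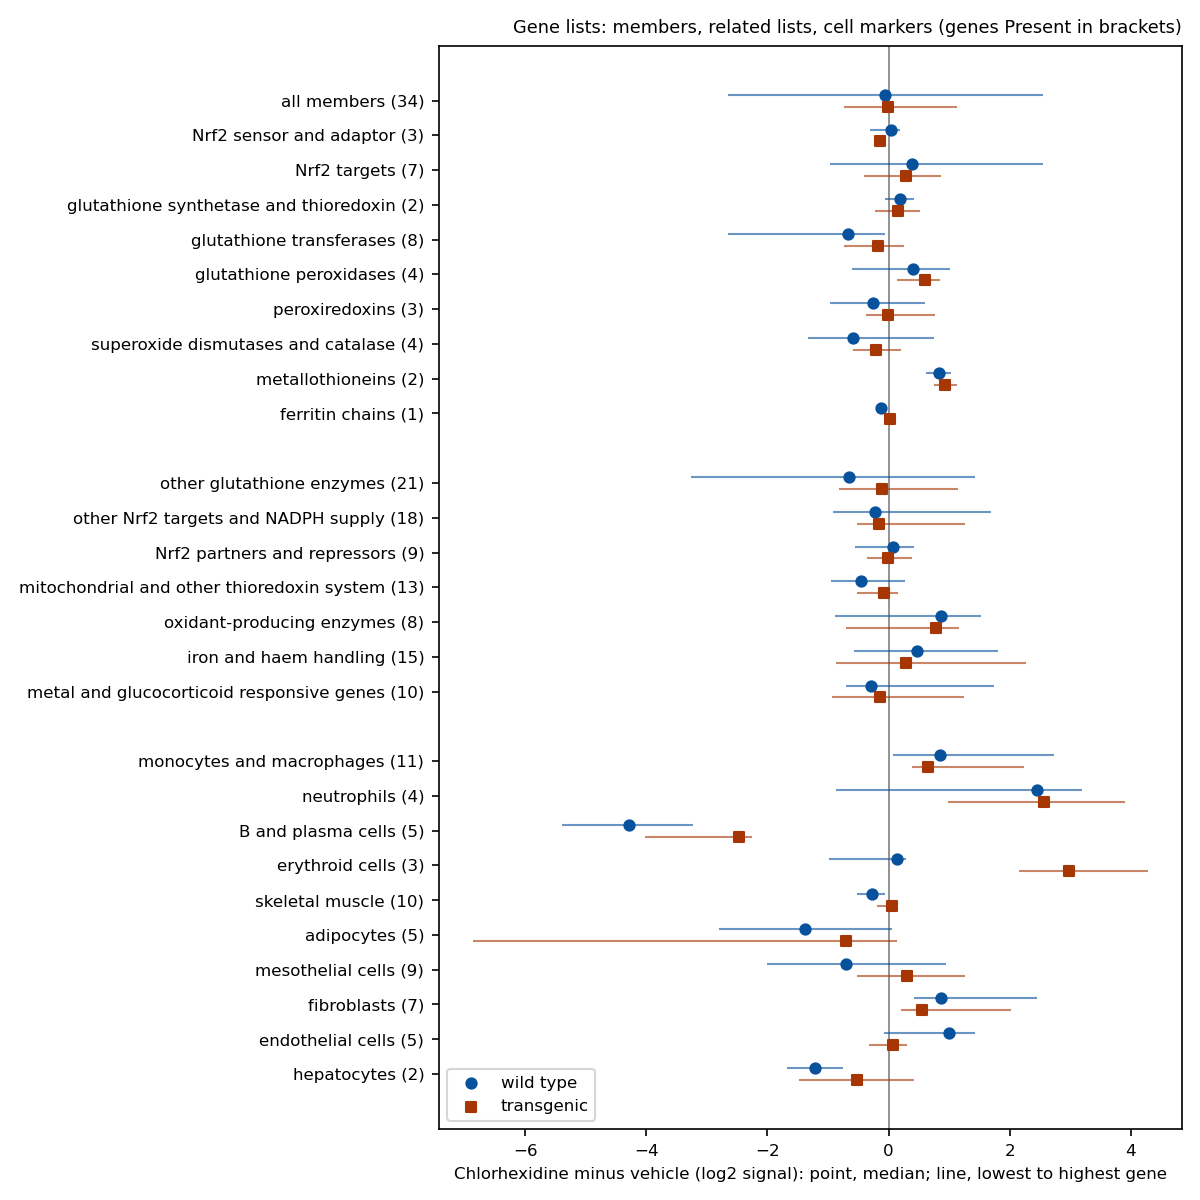
Median log2 difference (point) and the lowest to highest gene (line) with chlorhexidine for the listed genes, related lists and cell type markers, in wild type (blue circles) and transgenic mice (brown squares); the number of genes Present on at least 1 array is in brackets. In wild type the medians of glutathione transferases and other glutathione enzymes lie left of 0. So do those of adipocytes, B and plasma cells, mesothelial cells, skeletal muscle and hepatocytes. Metallothioneins and oxidant-producing enzymes lie right of 0, as do monocytes and macrophages, neutrophils, fibroblasts, endothelial cells and erythroid cells.

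Most enzymes that produce oxidants had higher signals in both genotypes. Of 11 listed, 8 were Present, of which 7 were above 0 in both genotypes and 1, aldehyde oxidase Aox1, was below 0 in both (-0.88 and -0.71), a gene named after its values were seen. Of the 8, 4 were called higher in wild-type mice and 2 in transgenic mice, beside 8.22% and 3.81% of all genes. The medians of the 8 were 0.86 and 0.78. Across all 12754 genes, 4643 were above 0 in both genotypes. Cybb, the catalytic subunit of the phagocyte NADPH oxidase, was 2.60-fold and 1.80-fold higher, its partner Cyba 2.04-fold and 1.89-fold, and its cytosolic activator Ncf1 2.26-fold and 1.64-fold. Nox4, an NADPH oxidase of fibroblasts and other stromal cells, was called in both genotypes at 2.87-fold and 2.25-fold higher. Monocyte and macrophage markers had higher signals with chlorhexidine, as had most of these genes and Hmox1. Of 12 markers 11 had a probe set, all 11 were above 0 in both genotypes, and their summed signals were 6474, 10325, 6658 and 9972. Between the vehicle arrays, where these sums were 6474 and 6658, Hmox1 differed 2.68-fold. The part of macrophages in the Hmox1 and NADPH oxidase values was not tested.

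Other Nrf2 targets and enzymes of NADPH supply did not share the direction of Hmox1. Of 19 listed, 18 were Present, with medians of -0.22 and -0.17. Ugdh, which makes the sugar for glucuronidation and hyaluronan, was called higher in both genotypes at 3.24-fold and 2.34-fold, and the carbonyl reductase Cbr3 was 1.17-fold lower in wild-type mice and called higher in transgenic mice at 2.40-fold. Iron and haem handling genes had medians of 0.46 and 0.29 over 15 genes, and the wild-type median was -0.01 with transgenic vehicle as the base. Lcn2, a siderophore-binding protein of neutrophils and stressed epithelium, was 3.50-fold and 4.81-fold higher. Of 9 listed neutrophil markers 4 were Present, with medians of 2.46 (0.82 with transgenic vehicle as the base) and 2.57. In wild type 3 of these were above 0 and Ngp was below 0 (-0.87), and in transgenic mice all 4 were above 0. The markers Mpo, Elane and Camp were Absent on every array. Summed signals of the 7 markers with a probe set ran from 109 on the wild-type vehicle array to 2194 on the transgenic chlorhexidine array. The part of neutrophils in the Lcn2 value was not tested. The ferroxidase ceruloplasmin (Cp) was 1.56-fold and 2.66-fold higher, and Lrp1, a receptor for haemopexin, 2.14-fold and 2.05-fold. Of the genes named from these related lists, Gstk1 (-0.93), Ncf1 (0.69), Nox4 (0.99), Lcn2 (0.90) and Slc39a14 (0.98) were under the threshold in wild type with transgenic vehicle as the base. Cp reached it there, and Cbr3 turned to 0.60.

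Under vehicle the genotypes differed in 1 of 34 genes by the same rule, Hmox1, which was higher in transgenic mice (2.94% beside 0.957% of all genes), and 0 were lower beside 0.502%. Under chlorhexidine, 2 genes were called higher in transgenic mice, Gsta3 and Mgst3 (5.88% beside 0.784%), and 0 lower beside 0.964%. These genes are too few to set apart from the background. Gsta3 was at least 5.94-fold higher in transgenic mice by the brighter probe set, whereas the second gave a log2 difference of 0.92, under the threshold, so the call depends on the probe set. The Mgst3 call sits at the threshold, with a log2 difference of 1.02 that ran from 0.92 to 1.10 over the scalings. When the wild-type difference was subtracted from the transgenic one, 2 genes were called higher, Gsta3 (2.91) and Gsta4 (1.26), which is 5.88% beside 2.01%, and 1 lower, Hmox1 (-1.68), which is 2.94% beside 2.96%. The Hmox1 value lay mostly between the vehicle arrays (1.42), and Gsta4 between both pairs (-0.68 under vehicle and 0.59 under chlorhexidine). This contrast was not tested, because 4 arrays leave a model with an interaction term no residual degree of freedom.

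**Figure D4:**
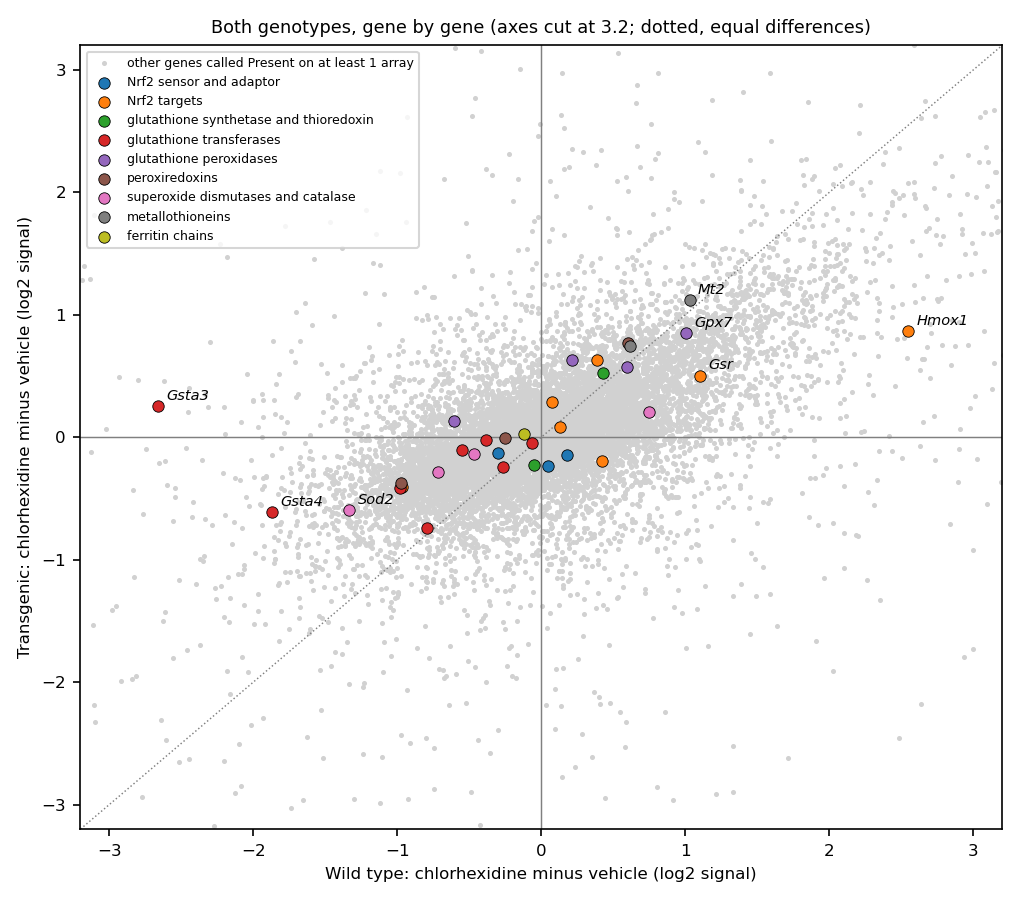
Log2 difference with chlorhexidine in wild type (horizontal axis) against that in transgenic mice (vertical axis) for the listed genes, coloured by role, over the other genes Present on at least 1 array in grey; some grey points lie outside the axes. Mt2 (1.03, 1.12) lies close to the dotted line of equal differences, and Hmox1, Gsta3, Gsta4 and Sod2 lie nearer the wild-type axis.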

How the data were processed

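RNA of 4 peritoneum samples, 1 per group by the labels, was hybridised to Affymetrix arrays after biotin labelling by in vitro transcription. The deposited files hold 1 signal per probe set, a linear intensity, beside a detection call and detection p-value from the authors, per the file headers. No source used here gives the algorithm or scaling target, and the design text reports the scanner images as lost. The deposited series table differed from the array files in 0 values.

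Arrays were multiplied by 1.17, 0.984, 0.877 and 1.01 (wild-type vehicle and chlorhexidine, transgenic vehicle and chlorhexidine) to a common 2% trimmed mean, with signals floored at 0.1 before log2. Of 45101 probe sets, 64 controls were left out, 34945 had 1 symbol, 932 several and 9160 none. Symbols were updated by Entrez identifier to RefSeq (GRCm38.p6). Where the dimmer array was not Present, a fold used the higher of that array's lowest Present signal and the probe set's own, as a lower bound. Limma 3.58.1 (R 4.3.3) was fitted on 12754 genes and tested on simulated data, with Benjamini-Hochberg adjustment at 0.05. With 1 array per group no difference has a replicate check, and the number of arrays limits the precision. The genes, lists and tests were chosen with earlier results of these data known. All 39 genes were described, and of related lists at most 4 genes called in at least 1 genotype, by mean difference. Alternatives covered scaling, pseudocount, filter, probe set choice, threshold, vehicle array and variance prior.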

Additional observations from a re-analysis of the deposited data

Results flagged for a closer look

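In 6 genes the chlorhexidine difference went one way on the wild-type arrays and the other way on the transgenic arrays, and the difference between genotypes was not tested. Gsta3 stood out in size, with log2 differences of -2.66 in wild type, where the chlorhexidine array was Absent, and 0.25 in transgenic mice, a gap of 2.91; its second probe set was below 0 in both genotypes. For Gpx4 the values were -0.60 and 0.13, a gap of 0.74. Its second probe set had the same signs but smaller values, -0.22 and 0.02. For Gclc they were 0.42 and -0.19, a gap of -0.61, and the second Gclc probe set had the same signs; with transgenic vehicle as the base the wild-type value of Gclc was -0.05. The other 3 genes stayed under 0.33 in either genotype: Sqstm1 had a gap of -0.32, Nfe2l2 of -0.28 and Fth1 of 0.15. The signs of Nfe2l2 in wild type, Gpx4 in transgenic mice and Fth1 in both turned under at least 1 array scaling.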

How the results depend on the processing

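The counts of genes called moved by over 1.5 times in these cases. In wild type, genes called higher (4) were 2 under quantile normalization, cyclic loess or a pseudocount of 32, 1 after median centring or at 3-fold, and 8 at 1.5-fold. Genes called lower in wild type (3) were 6 after median centring, 5 with the mean of probe sets or the other genotype's vehicle array, and 9 at 1.5-fold. In transgenic mice, genes called higher (1) were 0 with the deposited scaling or at 3-fold, 7 at 1.5-fold and 5 against the other vehicle array, and genes called lower (0) were 3 at 1.5-fold and 2 against the other vehicle array. Between the genotypes under vehicle (1) the count was 3 with the deposited scaling, 0 with the pseudocount or at 3-fold, 4 with the mean of probe sets, 2 without cross-hybridising probe sets and 5 at 1.5-fold. Under chlorhexidine (2) it was 1 under quantile normalization, cyclic loess, deposited scaling, the pseudocount, Present on all 4 arrays, the mean of probe sets or 3-fold, and 4 at 1.5-fold. The difference of differences (3) gave 5 with the deposited scaling or the mean of probe sets and 8 at 1.5-fold. Limma (0) called 12 with an intensity trend, 1 with the deposited scaling, 13 with the pseudocount and 12 among genes Present on all 4 arrays; over all genes its calls ran from 0 to 2483, with 12 as reported. Beyond the construction of each setting, the cause was not tested.

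Scaling moved the split of all genes in wild type from 1049 higher and 629 lower to 787 and 1039 after median centring, 868 and 751 under quantile normalization, 896 and 706 under cyclic loess, and 1586 and 318 with the deposited scaling; in transgenic mice it moved from 486 and 178 to 329 and 320 with the deposited scaling. The median of all genes in wild type shifted to -0.17, -0.11 and 0.25 under median centring, quantile normalization and the deposited scaling. Of the 34 genes, 6 changed sign with the scaling in wild type and 6 in transgenic mice; the 7 called in wild type were not among the former. With 1 array per group no replicate could be left out. No paired analysis was possible because each group holds 1 array, so a replicate block has nothing to pair.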
